A study of Mus musculus with 21 samples.

Results

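The genes of glycolysis, of lactate handling and of glycogen turnover were followed in RNA sequencing data of mouse hematopoietic stem cells (HSCs). The set held 31 gene symbols, chosen by name but with earlier results of these data known. All 31 were among the 21000 symbols of the count table, and the phosphofructokinase genes were not members. HSCs were sorted from wild-type mice in 7 groups of 3 libraries, 21 libraries in all, each made from 3000 to 3500 cells. Mice 10 weeks old received PBS or the cytotoxic drug 5-fluorouracil (5-FU, 150 mg/kg) once and were analysed at day 6, or received either agent 3 times, 21 days apart, with analysis at day 6 after the last administration. Further groups were analysed at day 21 after 5-FU once or after 5-FU 3 times, and the last group came from untreated mice aged 2 years. For 5-FU-treated mice early after the drug, the study opened its sorting gate to cells with dim c-Kit and left out the antibody to Mac-1, so that drug and gate cannot be told apart at day 6.

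Glycolysis splits glucose into pyruvate in the cytosol and yields ATP without oxygen. Lactate dehydrogenase turns pyruvate into lactate, which leaves the cell through monocarboxylate transporters, while glycogen stores glucose units that phosphorylase can return to the pathway. Several steps are served by isozymes, that is, by different genes for the same reaction, whose products differ in kinetics and in the tissues that use them. Earlier work stressed glycolysis in HSCs at rest, in a bone marrow niche poor in oxygen. The study behind these data proposes instead that HSCs at steady state make ATP mainly in mitochondria.

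Total counts were between 22184885 and 38649033 per library. Each library's median correlation with its own group, over log levels, was 0.983 to 0.988. For the 3 libraries of 5-FU once at day 21, the highest correlation with a library of another group was slightly above that median (0.98287 against 0.98279 for replicate 1). The counts of some genes followed the library totals poorly. Of genes with 1 RefSeq transcript, 99% had at most 0.965 counts per base of the longest transcript, against 8.47 for genes with 3 transcripts. Among genes with 1 transcript and at least 0.5 counts per base, the median slope of log counts on log library total within groups was 0.435 over 505 genes, where counts that follow depth give a slope near 1; it was 0.991 over 742 genes with 3 transcripts. The 15 members with 1 transcript included Tpi1 (slope 0.373), Gpi1 (0.369), Pgam1 (0.383) and Pgk1 (0.476), whereas Pkm (1.22), Eno1 (1.11), Aldoa (1.03), Ldha (0.982) and Gapdh (0.976) followed depth. Slopes varied within these classes too, as Hk2 (1.14), Pygb (1.14) and Gys1 (1.30) also have 1 transcript, and Slc16a3, with 3, had the lowest slope (0.234) and Bpgm, with 5, 0.504. Tpi1, with 1213 to 1600 counts in all libraries, had 0.856 counts per base and Pkm 67.9. Levels of members counted in such unlike ways were therefore not ranked against each other, and calls were read beside unscaled counts as well as in normalized CPM, that is, counts scaled to a common library total and corrected by library factors. How this came about was not tested.

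**Figure D1:**
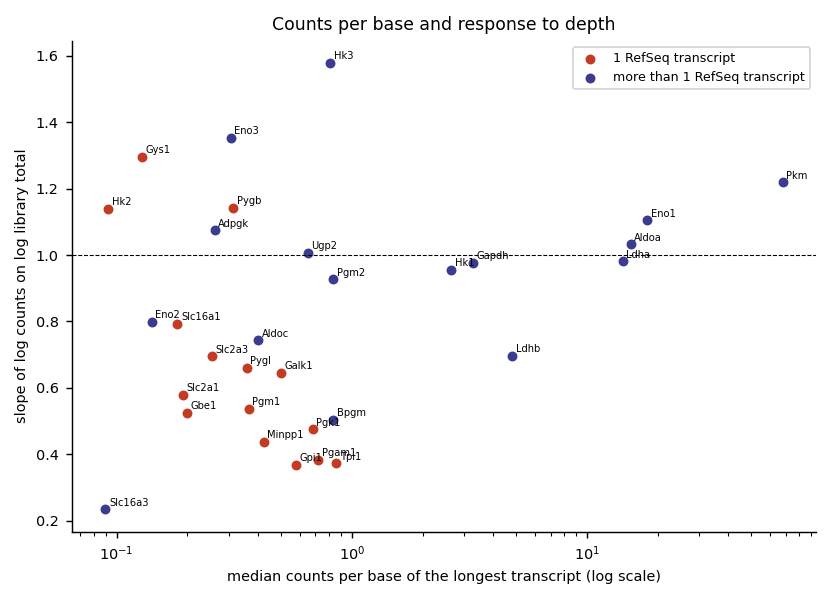
Each point is a member, placed by its median counts per base of the longest transcript (x axis, log scale) and by the slope of log counts on log library total within groups (y axis, no unit; the dashed line is 1); red marks 1 RefSeq transcript and blue more than 1. Tpi1, Pgam1, Pgk1 and Gpi1 lie between 0.369 and 0.476, and Pkm lies at 1.22.

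Some members share sequence with near-copies. Of the 75-base words of the longest transcript, the read length used, 67.5% of those of Pgk1, 65.4% of those of Eno1, 40.6% of those of Pgam1, 23.6% of those of Minpp1, 22.8% of those of Gapdh, 19.6% of those of Pkm and 16.7% of those of Ldhb also occurred in transcripts of other genes, and how such reads were counted is not stated. For Eno1 the other gene was mainly Eno1b, an intronless copy, so the values of both are uncertain. The symbols Pgm1 and Pgm2 have named each other's gene in some mouse annotations, and they are given as the table has them.

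The sorted cells carried the HSC surface markers Slamf1 (CD150), Procr (EPCR) and Ly6a (Sca-1) in every library, and the T cell gene Cd3e was at most 0.0297 normalized CPM. Kit was lower at day 6 after 5-FU (log2 fold change −0.86, edgeR adjusted p = 0.00111 after 1 administration; log2 fold change −0.44, edgeR adjusted p = 0.00701 after 3), and Cd48, which the gate excludes, was higher (log2 fold change 0.82, edgeR adjusted p = 0.0262; log2 fold change 1.90, edgeR adjusted p = 0.00374). Flt3, which the gate also excludes, was lower (log2 fold change −1.97, edgeR adjusted p = 0.0055; log2 fold change −1.18, edgeR adjusted p = 0.012). The beta-globin gene Hbb-bs was highest at 7.42 normalized CPM after PBS once and at 47 after 5-FU once. Of the 12 myeloid markers listed, 10 were tested after 5-FU once, of which none rose and 4 fell, where 11.5% of all genes were higher and 10.6% lower. Their summed level was 179 to 229.8 normalized CPM after PBS and 113 to 123 after 5-FU. Of 11 erythroid markers 8 were tested, of which 2 rose and 2 fell, with sums of 1415 to 1453 and 1165 to 1232. All 7 megakaryocyte markers were tested, and 5 fell and none rose, with sums of 193 to 236 and 111 to 121. Of the 10 markers of HSCs and of the gate, 3 rose and 2 fell, with sums of 4061 to 4508 and 3250.4 to 3432. Of the 7 lymphoid markers listed, 6 were in the count table, with 2 of these at 0 in each group. They summed to 15.4 to 17 and 7.15 to 9.08, and the 6 stromal and endothelial markers to 147 to 272 and 129.8 to 156. Of the lymphoid and the stromal and endothelial markers tested, 1 of 1 and 1 of 3 fell. After 3 administrations, where 9.84% of all genes were higher and 8.3% lower, 3 of 9 myeloid markers tested fell and none rose, with sums of 213 to 268 with PBS and 112 to 154 with 5-FU. Of 9 erythroid markers tested 4 rose and 3 fell (1317 to 1555 and 1153 to 1174), and of 7 megakaryocyte markers 3 fell and none rose (221 to 227 and 160.5 to 179). Of the 10 markers of HSCs and of the gate, 1 rose and 4 fell (3936 to 4257 and 2919 to 2984), and no lymphoid or stromal marker passed. The part of these shifts in the results was not tested, and in bulk samples fewer cells of a type and less RNA per cell cannot be told apart.

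Promoter sequences are shown for 3 members that rose at day 6 after 5-FU and for Ldhb, which fell. These examples do not stand for all members that rose or fell. Each is the run of 250 bases before an annotated RefSeq start on GRCm38.p6, with every ACGTG, read on either strand, in capitals. ACGTG is the core of the hypoxia response element and lies within the E-box CACGTG. The Ldha window is chr7:46845554-46845803, plus strand, and lies within the GENCODE extent of the gene; the 250 bases before a second RefSeq start of Ldha, chr7:46846832-46847081, plus strand, not shown, hold no ACGTG. The others are chr6:82774455-82774704, minus strand for Hk2, chr3:104638414-104638663, plus strand for Slc16a1, and chr6:142507958-142508207, minus strand for Ldhb.
Ldha: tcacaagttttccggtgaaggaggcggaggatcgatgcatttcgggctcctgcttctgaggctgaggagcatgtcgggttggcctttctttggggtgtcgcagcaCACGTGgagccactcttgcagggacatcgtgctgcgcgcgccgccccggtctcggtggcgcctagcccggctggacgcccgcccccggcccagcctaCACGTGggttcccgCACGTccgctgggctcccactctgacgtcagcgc
Hk2: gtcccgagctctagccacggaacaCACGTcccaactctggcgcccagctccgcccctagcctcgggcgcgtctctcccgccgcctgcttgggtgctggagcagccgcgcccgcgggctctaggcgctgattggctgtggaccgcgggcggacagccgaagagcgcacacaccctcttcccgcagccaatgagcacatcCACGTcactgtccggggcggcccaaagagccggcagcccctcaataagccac
Slc16a1: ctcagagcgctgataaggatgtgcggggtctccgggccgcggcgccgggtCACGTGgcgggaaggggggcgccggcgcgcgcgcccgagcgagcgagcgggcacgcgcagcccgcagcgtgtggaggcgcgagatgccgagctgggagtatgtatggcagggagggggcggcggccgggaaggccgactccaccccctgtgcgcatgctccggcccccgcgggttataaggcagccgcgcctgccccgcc
Ldhb: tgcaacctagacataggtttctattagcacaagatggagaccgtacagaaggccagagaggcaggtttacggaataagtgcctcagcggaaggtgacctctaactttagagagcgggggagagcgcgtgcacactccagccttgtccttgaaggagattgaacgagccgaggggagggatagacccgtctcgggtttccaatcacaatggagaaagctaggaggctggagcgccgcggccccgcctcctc

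Of 30 members with a promoter in the table, 20 held ACGTG within the 300-base window from 250 bases before a start to 50 after it. By gene the share was 21.8% over all 27025 genes, and 29.9% over 9257 genes that reached 10 counts in each library. The motif was present in 9 of 10 members that rose after 5-FU once, all but Eno1, and in 2 of 4 that fell, namely Aldoc and Pygl. It was also in 9 of 16 that did not pass the threshold. CACGTG was in 3 members, namely Ldha, Galk1 and Slc16a1, against 8.09% of all genes. A match is a string of letters in a window and not a bound site.

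At day 6 after 5-FU once, most genes of lower glycolysis rose relative to PBS, together with Hk2, Ldha and the lactate transporter Slc16a1, while the isozymes Aldoc and Ldhb fell. Of 31 members, 10 were higher and 4 lower (median log2 fold change 0.13, against −0.00056 over the 12759 genes tested). Across all genes 11.5% were higher and 10.6% lower. After 5-FU 3 times, 8 members were higher and 4 lower relative to PBS 3 times (median 0.14, against −0.01 over 12729 genes), where 9.84% of all genes were higher and 8.3% lower. By role after 1 administration, 5 of 7 lower-glycolysis genes, 2 of 8 upper-glycolysis genes and 2 of 4 lactate genes rose, and no glycogen gene did. In normalized CPM all of these called members were without overlap between the groups. For overlap, here and in later comparisons, the share over all called genes was not computed, so it does not set the members apart. In unscaled counts 9 of the 10 rises and 3 of the 4 falls after 5-FU once, and all 8 rises and 3 of the 4 falls after 5-FU 3 times, were without overlap. Libraries of 5-FU 3 times at day 6 had 31358819 to 38649033 counts and those of PBS 3 times had 27023725 to 31724107. Depth thus favours rises in unscaled counts after 5-FU 3 times. The members together made up 0.953% to 1.01% of counts after PBS once and 1.35% to 1.46% after 5-FU once, of which Pkm alone gave at least 50.1% in these libraries. Members were counted in unlike ways, with 67.9 counts per base for Pkm and 0.856 for Tpi1. These are therefore shares of counts and not of RNA.

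**Figure D2:**
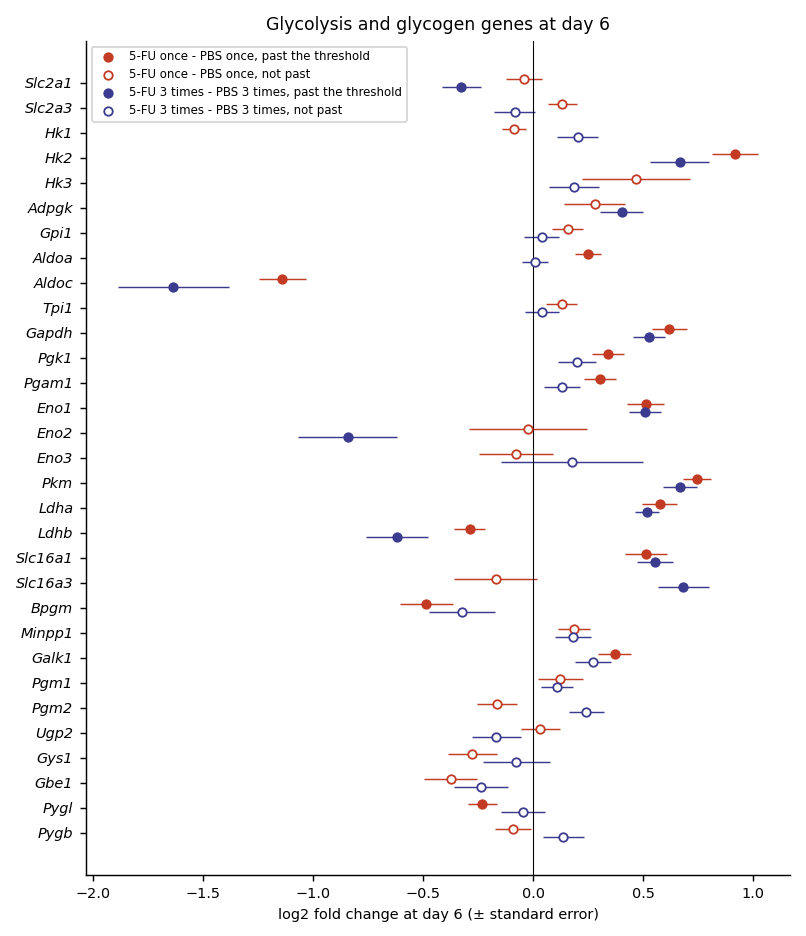
Log2 fold change of the 31 members at day 6 (x axis, error bars ± standard error), 5-FU once against PBS once in red and 5-FU 3 times against PBS 3 times in blue; filled points passed the adjusted p threshold of 0.05. Pkm, Gapdh, Ldha, Eno1, Slc16a1 and Hk2 lie to the right in both, and Aldoc (−1.14 and −1.64) lies furthest to the left.

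Neither of the members that bring glucose into the cell passed as higher. Slc2a1, which encodes the glucose transporter GLUT1, was at 23, 23.1 and 23.9 normalized CPM after PBS once and at 24.1, 23 and 21.3 after 5-FU once (log2 fold change −0.04 ± 0.082 SE, edgeR adjusted p = 0.748), and the groups overlapped. After 3 administrations it was at 22.7, 25.7 and 23.7 with PBS and 18.4, 20 and 19.9 with 5-FU (log2 fold change −0.33 ± 0.089 SE, edgeR adjusted p = 0.0439). That fall was not separate in unscaled counts, which were 668 to 827 with PBS and 599 to 703 with 5-FU, its slope on depth was 0.579, and the call was lost in 8 of 13 alternatives. Slc2a3 (GLUT3) was at 54.7, 55.8 and 52.3 after PBS once and 60.3, 59 and 60.4 after 5-FU once, and did not pass (log2 fold change 0.13 ± 0.066 SE, edgeR adjusted p = 0.185), with no overlap in normalized CPM and overlap in unscaled counts. After 3 administrations it did not pass either (log2 fold change −0.08, edgeR adjusted p = 0.574).

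Among the hexokinases, which trap glucose as glucose-6-phosphate, Hk2 (GRCm38 chr6:82725025-82774454) rose. Its levels were 17.8, 14.5 and 16.4 normalized CPM after PBS once and 28.9, 32.7 and 30.9 after 5-FU once (log2 fold change 0.92 ± 0.10 SE, edgeR adjusted p = 0.00254). After 3 administrations they were 16.7, 17.9 and 16.9 with PBS and 22.7, 28.3 and 31.9 with 5-FU (log2 fold change 0.67 ± 0.13 SE, edgeR adjusted p = 0.0172). The groups did not overlap in either comparison, although the second call was lost in 3 of 13 alternatives, each leaving out 1 library (adjusted p up to 0.055). Hk1, the widely expressed isozyme, did not pass after 1 administration (375, 383 and 372 with PBS, 359, 367 and 344 with 5-FU; log2 fold change −0.09 ± 0.055 SE, edgeR adjusted p = 0.292) or after 3 (log2 fold change 0.20, edgeR adjusted p = 0.182). Hk3 did not pass in either comparison. Adpgk, an ADP-dependent glucokinase, rose after 3 administrations (log2 fold change 0.40 ± 0.099 SE, edgeR adjusted p = 0.0331; lost in 7 of 13 alternatives) and was at log2 fold change 0.28, edgeR adjusted p = 0.187 after 1.

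In the aldolase pair, the ubiquitous Aldoa and the brain-type Aldoc moved apart. Aldoc (GRCm38 chr11:78322968-78327781) was at 44.4, 41.5 and 34.8 normalized CPM after PBS once and at 18.9, 17.8 and 18.3 after 5-FU once (log2 fold change −1.14 ± 0.11 SE, edgeR adjusted p = 0.00138). After 3 administrations it was at 54.4, 59.3 and 51.1 with PBS and 18.7, 24 and 11.1 with 5-FU (log2 fold change −1.64 ± 0.25 SE, edgeR adjusted p = 0.00752). Every 5-FU library at day 6 lay below every PBS library, and no other member fell as far in either comparison. Aldoa rose after 1 administration (log2 fold change 0.25 ± 0.058 SE, edgeR adjusted p = 0.0236; lost in 5 of 13 alternatives, each leaving out 1 library) and was at log2 fold change 0.01, edgeR adjusted p = 0.938 after 3. In unscaled counts the Aldoa groups overlapped after 1 administration, at 17980 to 21582 with PBS and 21389 to 26836 with 5-FU. Gpi1 and Tpi1, the isomerases on either side of aldolase, did not pass (Gpi1 log2 fold change 0.16, edgeR adjusted p = 0.151; Tpi1 log2 fold change 0.13, edgeR adjusted p = 0.234, after 1 administration), and both had slopes on depth under 0.5.

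Gapdh (GRCm38 chr6:125161715-125166467), which oxidises glyceraldehyde-3-phosphate, was at 334, 332 and 343 normalized CPM after PBS once and at 473, 573 and 509.9 after 5-FU once (log2 fold change 0.62 ± 0.08 SE, edgeR adjusted p = 0.00357). After 3 administrations it was at 389, 347 and 361 with PBS and 531, 514 and 558 with 5-FU (log2 fold change 0.53 ± 0.072 SE, edgeR adjusted p = 0.00545). The groups did not overlap in either comparison for this gene, which is often used as a reference. Pgk1, the first ATP-yielding kinase of the pathway, rose after 1 administration (log2 fold change 0.34 ± 0.073 SE, edgeR adjusted p = 0.0188), as did the mutase Pgam1 (log2 fold change 0.30 ± 0.073 SE, edgeR adjusted p = 0.0264). Neither passed after 3 administrations (Pgk1 log2 fold change 0.20, edgeR adjusted p = 0.154; Pgam1 log2 fold change 0.13, edgeR adjusted p = 0.313). Unscaled counts of Pgk1 were 1034 to 1162 after PBS once and 1330 to 1442 after 5-FU once, and those of Pgam1 1057 to 1200 and 1347 to 1449, with no overlap, but the calls were lost in 4 of 13 and 7 of 13 alternatives.

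Eno1, the ubiquitous enolase, was at 1173, 1229.9 and 1103 normalized CPM after PBS once and 1539, 1859 and 1626 after 5-FU once (log2 fold change 0.51 ± 0.082 SE, edgeR adjusted p = 0.00702), and rose alike in size after 3 administrations (log2 fold change 0.51, edgeR adjusted p = 0.00663). Its near-copy Eno1b gave log2 fold change 0.47, edgeR adjusted p = 0.0125 and log2 fold change 0.51, edgeR adjusted p = 0.00807. The neuronal Eno2 was spread widely after PBS once (9.38, 18.4 and 20.4) and overlapped with 5-FU once (16.5, 17.3 and 13.8). After 3 administrations Eno2 fell, from 15.8, 13.7 and 12.6 to 9.20, 5.33 and 9.18 (log2 fold change −0.84 ± 0.22 SE, edgeR adjusted p = 0.0414), a call lost in 6 of 13 alternatives. Eno3, the muscle enolase, did not pass in either comparison.

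Pkm (GRCm38 chr9:59656368-59679375), which encodes pyruvate kinase M and yields the last ATP of the pathway, was at 4947, 5015 and 4536 normalized CPM after PBS once and at 7618, 8721 and 8098 after 5-FU once (log2 fold change 0.74 ± 0.065 SE, edgeR adjusted p = 0.00122). After 3 administrations it was at 5604, 5563 and 5655 with PBS and 8449, 8533 and 10134 with 5-FU (log2 fold change 0.67 ± 0.077 SE, edgeR adjusted p = 0.00345). The groups were separate in both. Counts per gene symbol do not separate its M1 and M2 splice forms.

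**Figure D3:**
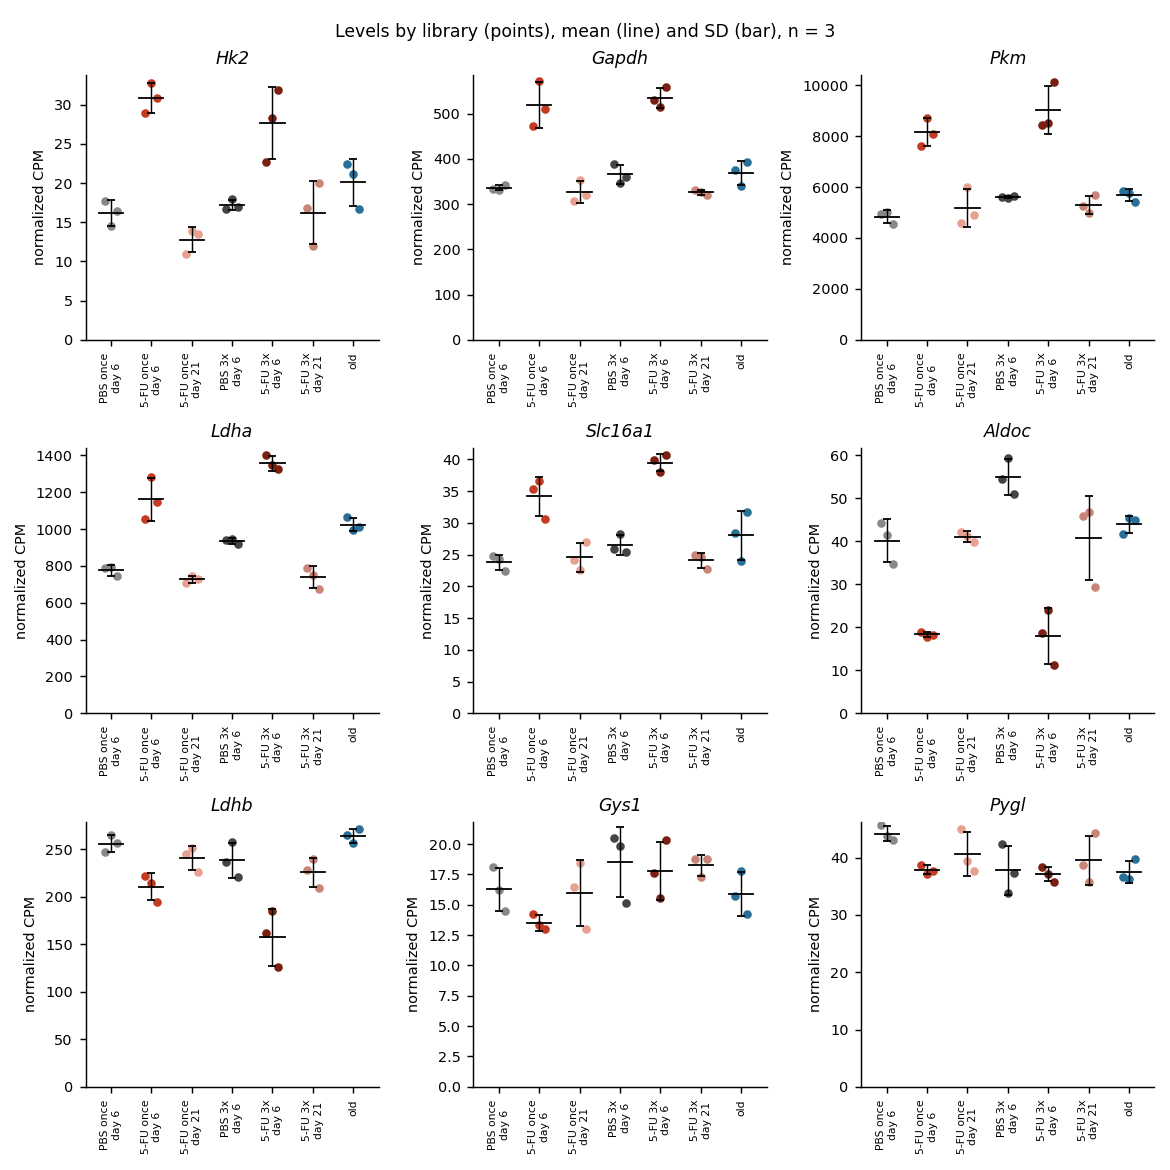
Normalized CPM (y axis, from 0) of 9 members in the 7 groups, 1 point per library, with the mean (line) and SD (bar), n = 3. The 6 libraries of 5-FU at day 6 lie above the other 15 for Hk2, Gapdh and Pkm and below them for Aldoc.

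At the lactate step both subunits of lactate dehydrogenase changed, in opposite directions. Ldha (GRCm38 chr7:46841475-46855627), the muscle-type subunit, was at 791, 792 and 744 normalized CPM after PBS once and 1054, 1285 and 1145 after 5-FU once (log2 fold change 0.57 ± 0.081 SE, edgeR adjusted p = 0.00443). Ldhb (GRCm38 chr6:142490249-142507957), the heart-type subunit, was at 246, 264 and 256 and 222, 215 and 195 (log2 fold change −0.29 ± 0.071 SE, edgeR adjusted p = 0.0271). Neither pair of groups overlapped. After 3 administrations Ldha was at 938, 948 and 917 with PBS and 1403, 1347 and 1324 with 5-FU (log2 fold change 0.52 ± 0.055 SE, edgeR adjusted p = 0.00282). Ldhb was at 237, 257 and 220.4 with PBS and 162, 184 and 126 with 5-FU (log2 fold change −0.62 ± 0.14 SE, edgeR adjusted p = 0.0263). The Ldhb calls were weak, lost in 7 of 13 alternatives after 1 administration (edgeR adjusted p up to 0.0831) and in 4 of 13 after 3 (up to 0.0759).

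Slc16a1, the monocarboxylate transporter MCT1, was at 24.7, 24.2 and 22.4 normalized CPM after PBS once and 35.3, 36.6 and 30.7 after 5-FU once (log2 fold change 0.51 ± 0.094 SE, edgeR adjusted p = 0.011), and it rose after 3 administrations too (log2 fold change 0.55, edgeR adjusted p = 0.00664). Slc16a3, the lactate exporter MCT4, overlapped after 1 administration (log2 fold change −0.17, edgeR adjusted p = 0.553). After 3 it was at 10.2, 8.75 and 8.99 with PBS and 15.5, 14 and 16 with 5-FU (log2 fold change 0.68 ± 0.12 SE, edgeR adjusted p = 0.00993; slope on depth 0.234). Bsg, which encodes the chaperone of both transporters, was also higher (log2 fold change 0.42, edgeR adjusted p = 0.00381 after 1 administration; log2 fold change 0.25, edgeR adjusted p = 0.0371 after 3).

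Ratios within a library do not depend on its scaling, although Ldhb and Aldoc followed depth less closely than Ldha and Aldoa (slopes 0.697 and 0.743). The ratio of Ldha to Ldhb counts was 3.21, 3.00 and 2.90 after PBS once and 4.75, 5.99 and 5.88 after 5-FU once, and 3.97, 3.69 and 4.16 after PBS 3 times and 8.68, 7.30 and 10.5 after 5-FU 3 times. Per kilobase, Ldhb made 31.5% ± 1.10 (SD, n = 3) of the pair after PBS once and 20.2% ± 2.12 after 5-FU once. At day 21 after 5-FU once it made 31.5% ± 1.22. These shares used the longest transcripts, 1815 bases for Ldha and 1304 for Ldhb, and their level depends on that choice. The mean lengths of coding transcripts were 981 and 848 bases. For Aldoa to Aldoc the ratio was 18, 19.3 and 22.1 after PBS once and 47.5, 55.7 and 51.3 after 5-FU once. The ratio of Hk1 to Hk2 was lower after 5-FU, with 21.1, 26.4 and 22.6 after PBS once and 12.4, 11.2 and 11.1 after 5-FU once. In each of these pairs the libraries of 5-FU once at day 6 did not overlap with PBS once. Eno1 to Eno2 overlapped after 1 administration and was separate after 3, at 82, 85.4 and 94.9 with PBS and 193, 306 and 203 with 5-FU.

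**Figure D4:**
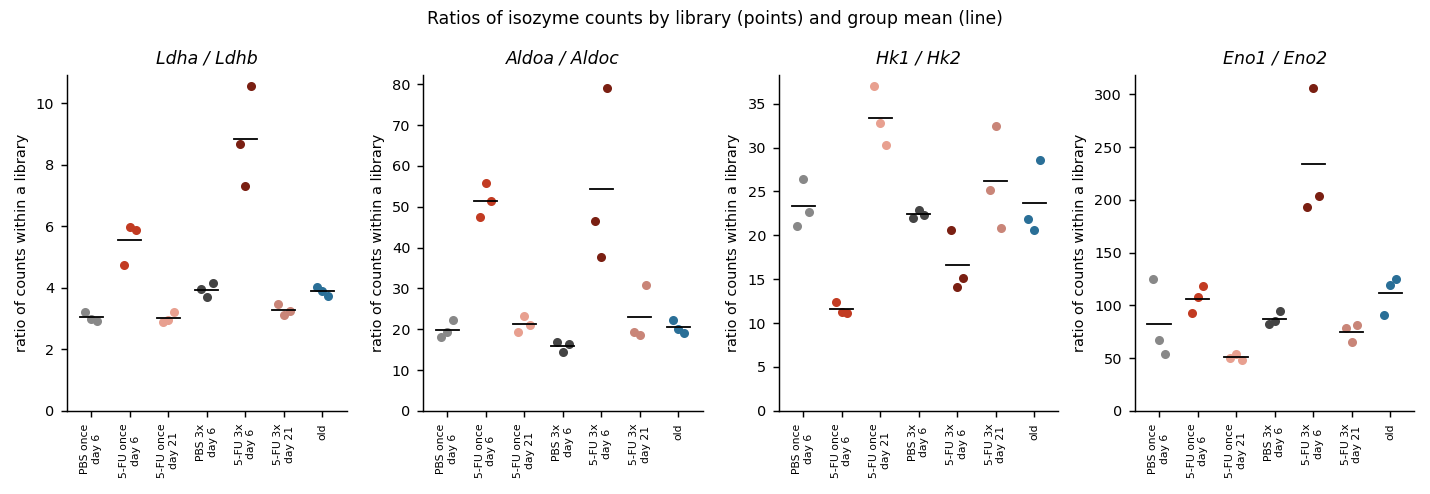
Ratio of counts within each library (y axis, from 0) for 4 isozyme pairs in the 7 groups, 1 point per library with the group mean as a line. Ldha to Ldhb lies between 7.30 and 10.5 after 5-FU 3 times at day 6, above all other groups.

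Of 3 members on branches off the main path, 1 was higher and 1 lower after 5-FU once, where 11.5% of all genes were higher and 10.6% lower. Bpgm, which makes 2,3-bisphosphoglycerate, fell after 1 administration, from 71.9, 69.2 and 69.9 to 58.9, 41.8 and 51.1 normalized CPM (log2 fold change −0.49 ± 0.12 SE, edgeR adjusted p = 0.0297; lost in 5 of 13 alternatives, each leaving out 1 library; slope on depth 0.504), and was at log2 fold change −0.32, edgeR adjusted p = 0.184 after 3. Minpp1, a phosphatase that can remove that metabolite, did not pass (0.19 and 0.18 on the log2 scale). Galk1, which phosphorylates galactose for entry into the pathway, rose after 1 administration from 24.5, 26.1 and 24.8 to 31.6, 32.3 and 34.1 (log2 fold change 0.37 ± 0.075 SE, edgeR adjusted p = 0.0151) and missed the threshold after 3 (log2 fold change 0.27, edgeR adjusted p = 0.0586).

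Of the 7 glycogen genes, 1 was lower after 5-FU once and 6 did not pass, where 10.6% of all genes were lower and 11.5% higher, with log2 fold changes from −0.38 to 0.12 (median −0.17). After 5-FU 3 times, where 8.3% of all genes were lower and 9.84% higher, none passed, from −0.24 to 0.24 (median −0.05), with 1 at an unadjusted p under 0.05. Pygl, the liver-type glycogen phosphorylase that releases glucose-1-phosphate, was at 45.7, 43.8 and 43 normalized CPM after PBS once and 38.7, 37.2 and 37.7 after 5-FU once (log2 fold change −0.23 ± 0.068 SE, edgeR adjusted p = 0.0482). Its unscaled counts overlapped, at 1005 to 1232 and 921 to 1005, and the call was lost in 9 of 13 alternatives. After 3 administrations Pygl was at log2 fold change −0.05, edgeR adjusted p = 0.781. Gys1, the glycogen synthase of muscle and most tissues, was at 18.1, 16.2 and 14.5 and 14.2, 13.3 and 13 (log2 fold change −0.28 ± 0.11 SE, edgeR adjusted p = 0.114), then at log2 fold change −0.08, edgeR adjusted p = 0.764 after 3. The branching enzyme Gbe1 was at 29.8, 29.4 and 29.4 after PBS once and 25.7, 18.8 and 24.1 after 5-FU once, and did not pass (log2 fold change −0.38, edgeR adjusted p = 0.0623). Its groups did not overlap, in unscaled counts either (686 to 804 and 509 to 631). Pgm1, Pgm2, Ugp2 and the brain-type phosphorylase Pygb, which share the steps between glucose-6-phosphate and glycogen, did not pass either.

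Other genes of these pathways changed in both directions. Of 59 further genes listed, 41 were tested in each comparison. Of these 5 were higher and 8 lower after 5-FU once, where 11.5% and 10.6% of all genes were, and 3 higher and 8 lower after 5-FU 3 times, where 9.84% and 8.3% were (median log2 fold changes −0.16 and −0.06). Pygm, the muscle phosphorylase, fell (log2 fold change −0.67, edgeR adjusted p = 0.0344; log2 fold change −1.31, edgeR adjusted p = 0.00456), as did Khk, the ketohexokinase of fructose (log2 fold change −0.73, edgeR adjusted p = 0.00426; log2 fold change −0.49, edgeR adjusted p = 0.0373), and Pdk2, a kinase that restrains pyruvate dehydrogenase (log2 fold change −0.62, edgeR adjusted p = 0.0182; log2 fold change −0.96, edgeR adjusted p = 0.00236). Of 7 phosphofructokinase and bisphosphatase genes, Pfkfb2 was lower after 1 administration (log2 fold change −0.90, edgeR adjusted p = 0.0185) and Pfkp higher after 3 (log2 fold change 0.42, edgeR adjusted p = 0.026).

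Whether the number of administrations altered the response was tested as an interaction over 12 libraries. No member passed with edgeR, and 5 had an unadjusted p under 0.05; of all 13227 genes, 0.34% were higher, 0.31% lower, and 14.8% had such a p. DESeq2 called 2 members higher and 1 lower, and of all genes 2.71% higher and 2.34% lower. The nearest members were Slc16a3 (log2 fold change 0.87 ± 0.23 SE, edgeR adjusted p = 0.103) and Pgm2 (log2 fold change 0.42 ± 0.11 SE, edgeR adjusted p = 0.108), both with a more positive change after 3 administrations. Genes called after only 1 of the regimens did not pass this test of the difference, such as Aldoa (log2 fold change −0.23, edgeR adjusted p = 0.181) and Pgk1 (log2 fold change −0.13, edgeR adjusted p = 0.622).

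From day 6 to day 21 after 5-FU once, 10 members fell and 3 rose (median −0.24, against −0.01 over 12589 genes), where 13.7% of all genes were lower and 12.3% higher. Hk2 fell furthest (log2 fold change −1.26 ± 0.12 SE, edgeR adjusted p = 0.00131), to 10.9, 13.9 and 13.5 normalized CPM. Ldha (log2 fold change −0.67, edgeR adjusted p = 0.00266), Gapdh (log2 fold change −0.66, edgeR adjusted p = 0.00457), Pkm (log2 fold change −0.65, edgeR adjusted p = 0.00689), Galk1 (log2 fold change −0.60, edgeR adjusted p = 0.00437) and Pgk1 (log2 fold change −0.51, edgeR adjusted p = 0.00711) also fell. The remaining falls, of Slc16a1, Pgam1, Eno1 and Tpi1, were between −0.47 and −0.33. Aldoc rose (log2 fold change 1.17, edgeR adjusted p = 0.000647), with Eno2 (log2 fold change 0.63, edgeR adjusted p = 0.00859) and Hk1 (log2 fold change 0.26, edgeR adjusted p = 0.0434). The call of Hk1 was lost in 7 of 13 alternatives, that of Tpi1 in 6 of 13, that of Slc16a1 in 5 of 13 and that of Pgam1 in 2 of 13. In unscaled counts 4 of the 10 falls and all 3 rises were without overlap; Tpi1, for example, had 1376 to 1429 counts at day 6 and 1220 to 1441 at day 21. The day 21 libraries after 5-FU once had 25270496 to 36669644 counts and those of day 6 had 23395821 to 27771296, so depth favours rises in unscaled counts. The 6 libraries of PBS once and 5-FU once at day 6 carry an ending in their column names that the other 15 lack, so this ending and the day cannot be told apart here. The study widened its sorting gate only early after 5-FU, so day 21 and day 6 also differ in the gate.

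After 5-FU 3 times all libraries lack the ending, but day and gate again cannot be told apart. Here 7 members fell and 3 rose from day 6 to day 21 (median −0.08, against 0.01 over 12553 genes). Of all genes, 10.8% were lower and 8.68% higher. Ldha fell from 1403, 1347 and 1324 to 791, 749 and 674 normalized CPM (log2 fold change −0.87 ± 0.08 SE, edgeR adjusted p = 0.00115). Pkm (log2 fold change −0.76, edgeR adjusted p = 0.00238), Hk2 (log2 fold change −0.76, edgeR adjusted p = 0.0381), Gapdh (log2 fold change −0.71, edgeR adjusted p = 0.00131), Slc16a1 (log2 fold change −0.71, edgeR adjusted p = 0.00274), Eno1 (log2 fold change −0.58, edgeR adjusted p = 0.00358) and Galk1 (log2 fold change −0.31, edgeR adjusted p = 0.0413) fell with it. Aldoc (log2 fold change 1.19, edgeR adjusted p = 0.0302), Eno2 (log2 fold change 1.00, edgeR adjusted p = 0.0201) and Ldhb (log2 fold change 0.53, edgeR adjusted p = 0.0404) rose. All 7 falls were without overlap in unscaled counts as well, but depth favours such falls here. The day 6 libraries had 31358819 to 38649033 counts and those of day 21 had 25285301 to 26745138. The call of Galk1 was lost in 9 of 13 alternatives, that of Ldhb in 5 of 13, those of Hk2 and Aldoc in 4 of 13 each and that of Eno2 in 1 of 13. The member median was −0.01 without day 21 replicate 1, −0.04 without day 21 replicate 2 and 0.03 with library size alone, under which the median of all genes was 0.12.

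Against PBS at day 6, no member passed at day 21 after 5-FU once or after 5-FU 3 times, with 4 members at an unadjusted p under 0.05 in each, as were 13.3% of all genes after 5-FU once and 13.7% after 5-FU 3 times. With edgeR 0.0712% of all genes were higher and 0.15% lower after 5-FU once, and 0.0396% and 0.00792% after 5-FU 3 times. DESeq2 called no member after 5-FU once, where it called 2.67% higher and 2.42% lower of all genes, and 1 member lower after 5-FU 3 times, where it called 1.5% higher and 2.56% lower. Day 21 libraries were compared here with the PBS groups of day 6, since none of the 21 libraries came from PBS at day 21. Hk2 at day 21 after 5-FU once was at 10.9, 13.9 and 13.5 normalized CPM against 17.8, 14.5 and 16.4 after PBS once, and all 3 lay below the PBS libraries (log2 fold change −0.34, edgeR adjusted p = 0.353). Eno2 was at 23.2, 24.6 and 25.7 at day 21 after 5-FU once against 9.38, 18.4 and 20.4 after PBS once, with no overlap in normalized CPM or in unscaled counts (log2 fold change 0.61, edgeR adjusted p = 0.371). The column names of PBS once carry the ending and those of 5-FU once at day 21 lack it. For Hk2 and Eno2 the ending and the group thus cannot be told apart. With PBS 3 times as the control, no member passed at day 21 after 5-FU once either. Aldoc at day 21 after 5-FU 3 times was at 45.9, 46.7 and 29.4 against 54.4, 59.3 and 51.1 (log2 fold change −0.44, edgeR adjusted p = 0.358).

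In HSCs of mice aged 2 years, 1 member was higher than after PBS once and none was lower (median 0.08, against −0.0043 over 12855 genes), where 1.44% of all genes were higher and 0.443% lower. That member was Ldha, at 1064, 997 and 1011 normalized CPM against 791, 792 and 744 (log2 fold change 0.40 ± 0.057 SE, edgeR adjusted p = 0.0156). Against PBS 3 times, whose column names, like those of the old libraries, lack the ending, Ldha was at 0.12 on the log2 scale (edgeR adjusted p = 0.468), and the call was lost. Hk1 (log2 fold change 0.31, edgeR adjusted p = 0.065) and Pkm (log2 fold change 0.23, edgeR adjusted p = 0.09) did not pass. Of the members, 6 had an unadjusted p under 0.05, against 14.3% of all genes, and DESeq2 called 4 higher, while of all genes it called 3.50% higher and 2.08% lower.

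PBS 3 times and PBS once were compared as controls. Only the column names of PBS once carry the ending. The ending and the number of administrations thus cannot be told apart, here or in the interaction. No member passed with edgeR and 5 had an unadjusted p under 0.05; of 12806 genes, 0.00781% were higher, 0.00781% lower, and 12.8% had such a p. DESeq2 called 3 members higher and 1 lower, and of all genes 2.15% higher and 1.72% lower. Ldha was at log2 fold change 0.27, edgeR adjusted p = 0.154 and Aldoc at log2 fold change 0.45, edgeR adjusted p = 0.205.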

How the data were processed

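RNA sequencing of sorted HSCs was analysed in 21 libraries (SMART-Seq v4 and Nextera XT, single-end reads of 75 bases). The authors aligned the reads with TopHat2 2.0.13 to mm10 with iGenomes annotation and used Cuffdiff of Cufflinks 2.2.1; they deposited whole-number read counts for 21000 gene symbols without normalization, and the program that made these counts is not given in the sources used here. The members and gene lists were chosen with earlier results of these data known.

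Counts were tested in R 4.3.3 for each comparison of groups. Genes were filtered with filterByExpr (edgeR 4.0.16), scaled by TMM factors and tested with the quasi-likelihood F test, with Benjamini-Hochberg adjustment over all genes kept and a threshold of 0.05. The interaction was tested over 12 libraries. Standard errors were derived from the fold change and its F value. Normalized CPM used factors over all 21 libraries; 3 counts per library, the floor, equal 0.0850 to 0.128 normalized CPM. The study speaks of independent experiments and of pooled samples, so p-values measure the spread between these libraries. Within a group, pairs of libraries differed by 16.8 to 37.2 times sampling noise (chi-square per degree of freedom), and none was a copy of another. Lengths and positions come from GENCODE M21 (GRCm38), with 20499 symbols matched, and transcript numbers and promoters from RefSeq (GRCm38.p6). Those RefSeq tables may differ from the annotation the authors used. Slc2a3 was not in the promoter table.

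All 31 members are given. Full statistics are given for members past the threshold (at most 12 per comparison) and always for Slc2a1, Hk1, Hk2, Gapdh, Pkm, Ldha, Ldhb, Gys1 and Pygl at day 6 after 5-FU. Alternatives were relative log expression factors, library size alone, DESeq2 1.42.0, filters of at least 1 count in total or 10 counts in every library, all libraries in one fit, a replicate block, each library left out, PBS 3 times as the control for the old group and, chosen after seeing the data, for day 21 after 5-FU once. Isozyme shares were also computed with the mean length of coding transcripts and without length. The edgeR and DESeq2 steps were tested on simulated data.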

Additional observations from a re-analysis of the deposited data

Results flagged for a closer look

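Pgm2, a phosphoglucomutase, lay lower in every library after 5-FU once than after PBS once, and higher in every library after 5-FU 3 times than after PBS 3 times, which is what flagged it. Neither change passed the threshold (log2 fold change −0.17, edgeR adjusted p = 0.22, and 0.24, edgeR adjusted p = 0.082), and the interaction was 0.42 on the log2 scale (edgeR adjusted p = 0.108).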

How the results depend on the processing

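Of 50 member changes past the threshold, 28 stayed past it under every alternative run and 22 lost it under at least 1, of which 10 only where a library was left out; none reversed. With the replicate block, members lower than PBS were 2 after 5-FU once and 2 after 5-FU 3 times, against 4 each, and the rise of Ldha in old HSCs was lost (0 members). Calls over all genes dropped as well, to 998 lower after 5-FU once (from 1357) and 704 after 5-FU 3 times (from 1057). In old HSCs they dropped to 75 higher (from 185). Deviations of libraries with the same number correlated at −0.0508 to 0.0578, which shows no sign of pairing by number. Libraries with different numbers were not correlated for comparison, so this does not settle whether the numbers pair the libraries. DESeq2 gave 2 members higher and 1 lower in the interaction, 1 lower at day 21 after 5-FU 3 times against PBS, 4 higher in old HSCs, and 3 higher and 1 lower for PBS 3 times against PBS once. With all 21 libraries in one fit, 1 member was lower at day 21 after 5-FU 3 times (0.87% of all genes were) and 2 were higher in old HSCs (1.64%). With PBS 3 times as the control, 0 were higher in old HSCs.

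Leaving out 1 library gave 1 to 3 members lower after 5-FU once (3 without 5-FU replicate 1, 1 without any other) and 1 to 3 after 5-FU 3 times (3 without 5-FU replicate 2, 2 without 5-FU replicate 3, 1 otherwise). It gave 0 to 3 members higher from day 6 to day 21 after 5-FU 3 times (0 without day 21 replicate 2, 1 without day 21 replicate 1 or day 6 replicate 1 or 3) and 0 higher in old HSCs, whichever library was left out. Log2 fold changes not past the threshold ranged from −0.08 to 0.01 for Slc2a1 after 5-FU once, and after 5-FU 3 times from −0.2 to 0.02 for Gys1 and from −0.12 to 0.04 for Pygl. These fits have fewer libraries, and calls over all genes dropped too. Lower calls were 762 to 910 after 5-FU once (1357 with all libraries) and 556 to 721 after 5-FU 3 times (1057). Higher calls were 547 to 716 from day 6 to day 21 after 5-FU 3 times (1089). In old HSCs they were 74 to 108 (185).

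Library size alone moved the median of all genes to −0.11 after 5-FU 3 times and to 0.12 from day 6 to day 21 after 5-FU 3 times; members higher and lower were then 7 and 4, and 4 and 6. Calls over all genes then were 807 higher and 1462 lower (1253 and 1057 with TMM), and 1701 and 977 (1089 and 1361). After 5-FU once they were 1127 and 1623 (1470 and 1357). The member median was then 0.08 after 5-FU once (0.13 with TMM), 0.04 after 5-FU 3 times (0.14) and 0.04 in old HSCs (0.08), where it was also 0.05 without old replicate 1 or PBS replicate 2, 0.04 without old replicate 3 and 0.02 against PBS 3 times. Genes with 1 transcript and a low slope on depth limit what their fold changes can show, and no alternative run here removes that limit.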
